A study of Mus musculus with 4 samples.

Results

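The cyclin-dependent kinase (CDK) inhibitors and Bmi1, a repressor of Cdkn2a, were examined in mouse embryonic fibroblasts with or without a telomerase transgene. The genes were Cdkn1a, Cdkn1b, Cdkn1c, Cdkn2a, Cdkn2b, Cdkn2c, Cdkn2d and Bmi1, and every probe set annotated with exactly 1 of these symbols was taken. That gave 11 probe sets for 8 genes out of 22626 probe sets that are not controls. Of these, 10 passed the filter on detection calls and all 8 genes kept at least 1 tested probe set, among 12396 tested probe sets for 7387 genes. Each RNA sample was read on its own Affymetrix MOE430A array. The 2 mTert samples, mTert 1 and mTert 2, had received the retroviral vector pBabePuro with the catalytic subunit of mouse telomerase, and the 2 control samples, control 1 and control 2, had received the vector as an empty virus. Strain, age of the embryos, passage and promoter were not given in the sources used here, nor was it stated whether arrays of 1 group came from separate cultures. The p-values thus rest on the spread among these 4 samples, part of which may be technical.

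Progress from the G1 phase into DNA replication is driven by cyclin D with CDK4 or CDK6 and by cyclin E with CDK2, which together inactivate the retinoblastoma protein. The Cip/Kip inhibitors p21 (Cdkn1a), p27 (Cdkn1b) and p57 (Cdkn1c) bind complexes of cyclins and CDKs. The INK4 inhibitors p16Ink4a (Cdkn2a), p15 (Cdkn2b), p18 (Cdkn2c) and p19Ink4d (Cdkn2d) bind CDK4 and CDK6 alone. Cdkn2a also encodes p19Arf from another first exon, which stabilises p53 and so raises p21. In cultured mouse embryonic fibroblasts the products of Cdkn2a accumulate with passage and bring on senescence, and the Polycomb protein Bmi1 represses the locus.

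Cdkn2a and Cdkn2b are neighbours on the minus strand of chromosome 4, and their start regions are shown because Cdkn2a has more than 1 start but a single probe set. In RefSeq's GRCm38.p6 tables Cdkn2a lies at chr4:89274473-89294619 and Cdkn2b at chr4:89306289-89311032. The Cdkn2b start is 16413 bases upstream of the first Cdkn2a start, and the Cdkn2a starts are 12427 bases apart. Each window runs 5′ to 3′ from 250 bases before the start to 50 bases after it, and capitals mark GC boxes, the letters GGGCGG searched on both strands.
Cdkn2b, chr4:89310983-89311282, minus strand: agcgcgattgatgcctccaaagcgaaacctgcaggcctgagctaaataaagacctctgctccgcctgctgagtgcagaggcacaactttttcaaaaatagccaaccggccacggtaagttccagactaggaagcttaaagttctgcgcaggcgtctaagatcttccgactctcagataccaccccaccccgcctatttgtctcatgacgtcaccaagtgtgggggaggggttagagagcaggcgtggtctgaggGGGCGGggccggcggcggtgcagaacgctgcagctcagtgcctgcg
Cdkn2a start 1, chr4:89294570-89294869, minus strand: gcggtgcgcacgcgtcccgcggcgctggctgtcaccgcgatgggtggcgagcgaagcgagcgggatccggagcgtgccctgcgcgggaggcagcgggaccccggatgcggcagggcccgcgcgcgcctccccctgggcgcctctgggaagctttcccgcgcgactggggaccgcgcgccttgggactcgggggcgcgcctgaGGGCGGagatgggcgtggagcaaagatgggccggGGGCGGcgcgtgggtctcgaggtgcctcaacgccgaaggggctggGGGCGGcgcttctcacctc
Cdkn2a start 2, chr4:89282143-89282442, minus strand: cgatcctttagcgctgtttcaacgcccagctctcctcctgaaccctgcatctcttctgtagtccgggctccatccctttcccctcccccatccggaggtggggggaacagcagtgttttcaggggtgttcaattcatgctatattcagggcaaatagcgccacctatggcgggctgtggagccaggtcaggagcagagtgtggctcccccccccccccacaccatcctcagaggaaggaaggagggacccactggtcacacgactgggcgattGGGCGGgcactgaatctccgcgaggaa
The window at the first Cdkn2a start held 3 GC boxes and 77.0% G and C. The windows of the second Cdkn2a start and of Cdkn2b held 1 GC box each, at 60.3% and 57.7% G and C. Of 32851 windows of this length in the table, 35.7% held a GC box. The platform table ties the Cdkn2a probe set to NM_009877, 1 of the 2 transcripts that RefSeq lists for the gene, and the files do not say how its probes divide between them.

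Cdkn1a lies at chr17:29090979-29100722 on the plus strand and has starts 2790 bases apart. Both windows are shown because Cdkn1a is the inhibitor that p53 induces. In the first, capitals mark matches to the consensus of a p53 half-site, which 8.36% of all windows held, and in the second they mark GC boxes.
Cdkn1a start 1, chr17:29090729-29091028, plus strand: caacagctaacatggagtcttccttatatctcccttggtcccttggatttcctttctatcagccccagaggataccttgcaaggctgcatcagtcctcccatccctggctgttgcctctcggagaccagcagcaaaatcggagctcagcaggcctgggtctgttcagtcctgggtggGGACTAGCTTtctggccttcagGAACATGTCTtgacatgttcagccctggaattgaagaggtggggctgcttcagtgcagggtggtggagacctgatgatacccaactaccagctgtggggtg
Cdkn1a start 2, chr17:29093519-29093818, plus strand: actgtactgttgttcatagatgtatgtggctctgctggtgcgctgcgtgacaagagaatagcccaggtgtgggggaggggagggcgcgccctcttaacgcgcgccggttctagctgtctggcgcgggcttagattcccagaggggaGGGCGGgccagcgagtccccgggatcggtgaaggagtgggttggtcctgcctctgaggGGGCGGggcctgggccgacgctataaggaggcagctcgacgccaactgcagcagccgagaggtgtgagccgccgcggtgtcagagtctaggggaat
The first window held 2 half-site matches and 0 GC boxes, and the second 0 half-site matches and 2 GC boxes. These are matches of letters in RefSeq sequence and measure no binding.

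Of the 22626 probe sets, between 51.6% and 54.4% were called present on each array. Tert, the transgene's gene, was called present on both mTert arrays, with signals of 1165 and 845, and absent on both control arrays, with 128 and 84.7. Because Tert was not above background in control, it was at least 9.53-fold higher in mTert, taken between group means of log2 signals. Each control array entered with its own signal, which exceeded the lowest one called present there. The limma adjusted p was 0.188. All 14 fibroblast markers on the array were present on all 4 arrays, among them Vim, Col1a2, Col3a1 and Col1a1. Macrophage and leukocyte markers separated the arrays by the number in their titles: 17 of 19 were present on each array numbered 2 and 9 on each array numbered 1. Their summed signal was 19333 on mTert 2 and 18569 on control 2, against 4581 on mTert 1 and 3993 on control 1. Csf1r, the receptor for macrophage colony-stimulating factor, was present on all 4, with 2293 and 2191 on mTert 2 and control 2, against 691 and 671 on mTert 1 and control 1. C1qa, Fcer1g and Mpeg1, genes of complement, Fc receptor signalling and a macrophage perforin, were absent on both arrays numbered 1. The instrument records listed 5 µg of labelled cRNA for control 1, against 15 µg for mTert 1, mTert 2 and control 2. Each array had a different wash module, and mTert 2 was scanned 91 minutes after control 2, the first. The part of these settings in any difference between arrays was not tested.

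mTert was compared with control to ask whether the transgene goes with different levels of the inhibitor transcripts. No inhibitor probe set passed the test. Tert, the transgene's gene, did not pass it either (limma adjusted p of 0.188), so a lack of calls cannot show unchanged levels. At an adjusted p of 0.05 over 12396 probe sets, limma called 0 of the 10 member probe sets and 0 of all probe sets (0%), with 0 members and 260 of all probe sets (2.1%) at an unadjusted p under 0.05. Every member had a limma adjusted p of 1.00. Of the 8 genes, each taken by its brightest tested probe set, 4 were higher in sign and 4 lower, with a median log2 difference of -0.066 (0.0078 over all 7387 genes). The median was 0.033, with 5 higher and 3 lower, when a gene's probe sets were averaged, and -0.16, with 2 higher and 6 lower, without control 2. Leaving out control 1 gave -0.028 and leaving out mTert 2 gave -0.033. The mTert pair of signals lay wholly below the control pair for 2 member probe sets and wholly above for 0. Over all tested probe sets 12.1% lay wholly below and 13.4% wholly above, together 25.5%, close to the members' share. With 2 arrays against 2, an exact two-sided permutation test of a single gene cannot go below 0.333. In RNA from a whole culture, fewer cells of a type and less RNA per cell cannot be told apart.

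Among the Cip/Kip genes, Cdkn1a, whose product p21 is the main p53-induced inhibitor, had signals in arbitrary units of 3155 and 2762 in mTert 1 and mTert 2, against 3354 and 2500 in control 1 and control 2. The mTert values lay between the control values. The means were 2959 ± 278 in mTert and 2927 ± 604 in control (SD, n = 2 each), a log2 difference of 0.03 (SE 0.16, 95% interval -0.36 to 0.41). The other Cdkn1a probe set was called absent on all 4 arrays, with 323 and 325 in mTert and 356 and 232 in control, and was not tested.

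Cdkn1b encodes p27, which restrains CDK2 in quiescent cells, and lies at chr6:134920401-134925525. Its brighter probe set read 798 and 676 in mTert 1 and mTert 2, against 864 and 877 in control 1 and control 2. Both mTert signals were below both controls, with means of 737 ± 85.9 and 870 ± 9.50 (SD, n = 2 each) and a log2 difference of -0.24 (SE 0.14, 95% interval -0.58 to 0.09). The dimmer Cdkn1b probe set pointed the other way. It read 127 and 66.7 in mTert against 92.5 and 55.8 in control, a log2 difference of 0.36 (SE 0.42), so the sign for Cdkn1b depends on the probe set. The brighter probe set stood at -0.13 without mTert 2 and at -0.36 without mTert 1.

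Cdkn1c, an imprinted gene for p57 that restrains growth in the embryo, lies at chr7:143458339-143461059. It read 1887 and 1035 in mTert 1 and mTert 2, against 1986 and 1477 in control 1 and control 2. The groups overlapped, since mTert 1 lay above control 2. The log2 difference was -0.29 (SE 0.29, 95% interval -1.01 to 0.42), and without mTert 2 it was 0.14. It was -0.07 between the arrays numbered 1 and -0.51 between those numbered 2. With the array number as a block the 95% interval was -0.58 to -0.009. The limma unadjusted p was then 0.044, and Cdkn1c was not called after adjustment.

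**Figure D1:**
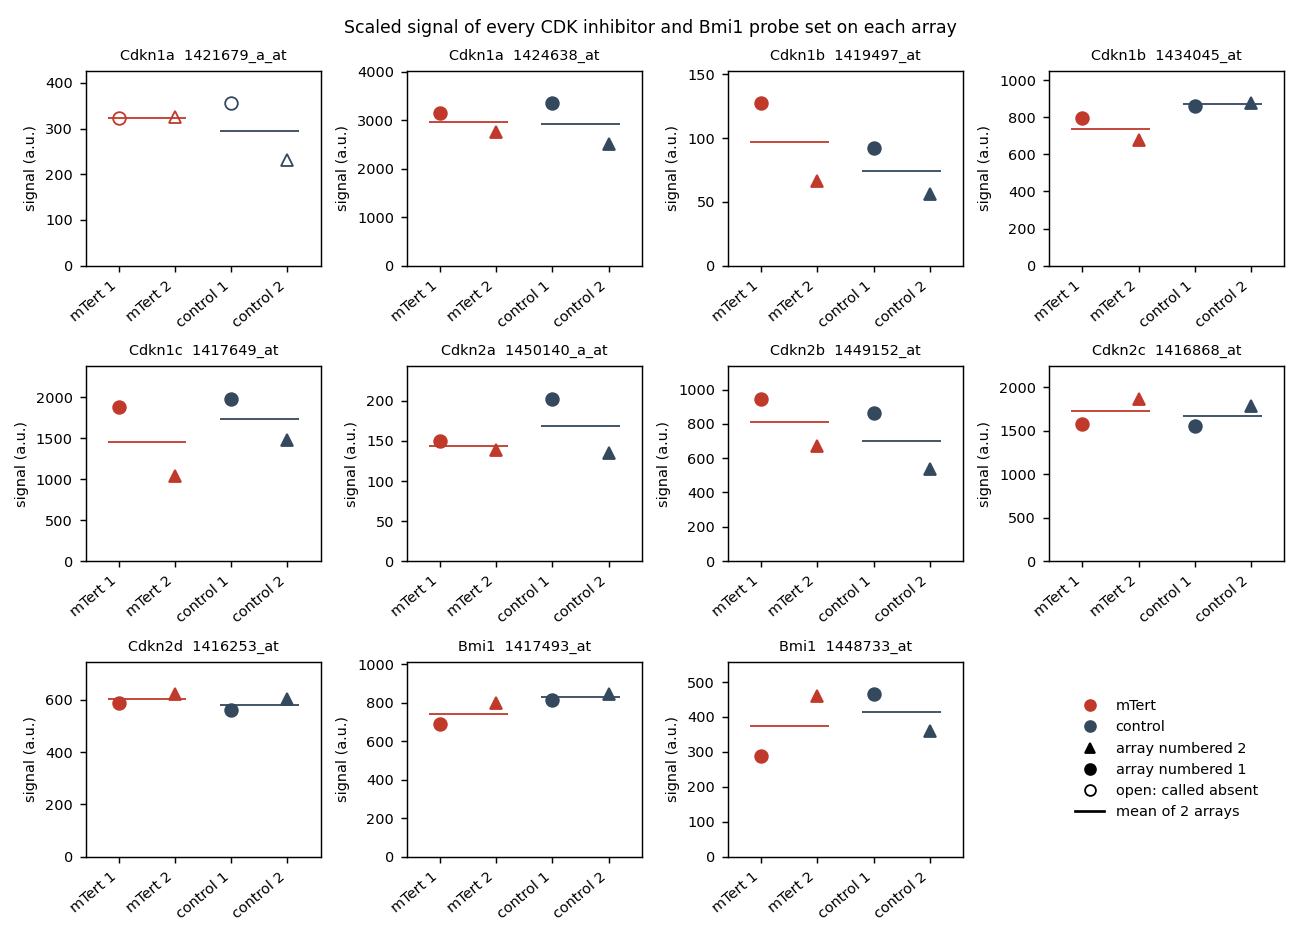
Scaled signal (arbitrary units, y axis from 0) of all 11 probe sets on the 4 arrays, mTert in red and control in dark blue, circles for arrays numbered 1 and triangles for arrays numbered 2, open symbols for absent calls, lines for the mean of 2 arrays. For Cdkn1c, Cdkn2a, Cdkn2b, the tested Cdkn1a and the dimmer Cdkn1b probe set both triangles lie below both circles, whereas the brighter probe sets of Cdkn1b and Bmi1 are the ones with both red points below both blue ones.

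Among the INK4 genes, the single Cdkn2a probe set was dim, with signals of 150 and 139 in mTert 1 and mTert 2, against 203 and 135 in control 1 and control 2. Control 1 was highest and the other 3 arrays lay close together, with control 2 below both mTert arrays. The log2 difference was -0.20 (SE 0.26, 95% interval -0.83 to 0.44). Without control 1 it was 0.10. All 4 calls were present.

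Cdkn2b, whose product p15 is induced by TGF-beta, read 947 and 673 in mTert 1 and mTert 2, against 863 and 537 in control 1 and control 2. Each mTert array was above the control of the same number, but the groups overlapped. The means were 810 ± 193 in mTert and 700 ± 231 in control (SD, n = 2 each), a log2 difference of 0.23 (SE 0.27, 95% interval -0.43 to 0.89). It was -0.11 without control 2 and -0.02 without mTert 1.

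Cdkn2c, for p18, lies at chr4:109660876-109666756 and Cdkn2d, for p19Ink4d, at chr9:21288459-21291421. Cdkn2c read 1575 and 1870 in mTert 1 and mTert 2, against 1560 and 1791 in control 1 and control 2, a log2 difference of 0.04 (SE 0.14, 95% interval -0.29 to 0.37). Cdkn2d read 588 and 622 in mTert against 560 and 602 in control, a log2 difference of 0.06 (SE 0.14, 95% interval -0.27 to 0.39). For both genes the groups overlapped and each mTert array was slightly above the control of its number. Cdkn2c stood at -0.061 without control 1 and at -0.086 without mTert 2, and Cdkn2d at 0.0056 without control 1 and 0.11 without control 2.

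Bmi1, the Polycomb repressor of Cdkn2a, lies at chr2:18677018-18686629. Its brighter probe set read 689 and 797 in mTert 1 and mTert 2, against 812 and 844 in control 1 and control 2. Both mTert signals lay below both controls, with a log2 difference of -0.16 (SE 0.14, 95% interval -0.49 to 0.17). It was -0.055 without mTert 1 and -0.27 without mTert 2. The other Bmi1 probe set, tied to the same sequence record, read 287 and 460 in mTert against 465 and 361 in control. Its groups overlapped, with a log2 difference of -0.17 (SE 0.26). It stood at -0.70 between mTert 1 and control 1 and at 0.35 between mTert 2 and control 2.

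**Figure D2:**
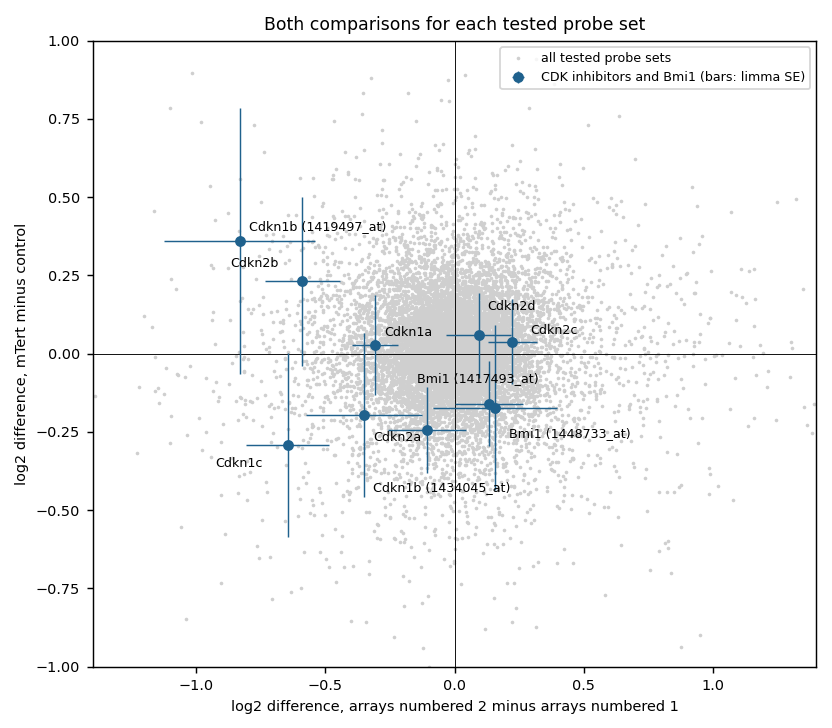
Log2 difference of mTert minus control (y axis) against that of arrays numbered 2 minus arrays numbered 1 (x axis), grey for tested probe sets and blue for the 10 tested member probe sets with limma SE; 97 grey points fall outside the axes. The members spread from -0.83 to 0.22 along x and from -0.29 to 0.36 along y.

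The arrays titled 2 were then set against those titled 1, each side holding 1 mTert and 1 control array. What the numbers stand for was not given in the sources used here. Cdkn1c, Cdkn2b and Cdkn1a were lower on both arrays numbered 2 than on both numbered 1, and Cdkn2c was higher. None of these passed limma over all probe sets: 0 of the 10 member probe sets were called, where 192 of all 12396 were (1.55%), 131 higher (1.06%) and 61 lower (0.492%). At an unadjusted p under 0.05 there were 5 member probe sets, against 10.5% of all. The total of 192 was 91 without control 2 and 80 without mTert 2. With the vector (mTert or control) as a block, limma called Cdkn1c and Cdkn2b lower, 2 of 10 member probe sets against 2.85% of all. The median log2 difference of the 8 genes was -0.21 (0.0079 over all genes), with 3 higher and 5 lower in sign. It was -0.09 without control 1.

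The separation of the arrays by number was frequent among the members. The arrays numbered 2 lay wholly below for 5 and wholly above for 2 of the 10 member probe sets, where 19.5% of all tested probe sets lay wholly below and 20.3% wholly above, together 39.8%. On the gene level 4 lay below and 2 above of 8, where 18.4% of all genes lay wholly below and 21.9% wholly above.

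Cdkn1c averaged 1256 ± 312 on the arrays numbered 2 and 1936 ± 69.9 on those numbered 1 (SD, n = 2 each). The log2 difference was -0.65 (SE 0.16, 95% interval -1.02 to -0.28), with a limma adjusted p of 0.123 and of 0.010 with the vector as a block. It was -0.87 between the mTert arrays and -0.43 between the control arrays. Without control 2 the limma adjusted p was 0.034, so a single array decides this call in the fit without a block.

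Cdkn2b averaged 605 ± 96.7 on arrays numbered 2 and 905 ± 59.2 on those numbered 1 (SD, n = 2 each). The log2 difference was -0.59 (SE 0.15, 95% interval -0.93 to -0.25), with a limma adjusted p of 0.125 and of 0.049 with the vector as a block. It was -0.49 between the mTert arrays and -0.69 between the control arrays.

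Cdkn1a averaged 2631 ± 185 on arrays numbered 2 and 3255 ± 140 on those numbered 1 (SD, n = 2 each), a log2 difference of -0.31 (SE 0.09) with a limma adjusted p of 0.199. It was 0.192 with the block. The dimmer Cdkn1b probe set stood at -0.83 (SE 0.29) and the brighter one at -0.11 (SE 0.15), with limma adjusted p of 0.313 and 0.895. Only the dimmer one separated the arrays by number. The brighter one stood at 0.08 without mTert 2.

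Cdkn2a lay lower on both arrays numbered 2, with 137 ± 2.83 against 176 ± 37.5 (SD, n = 2 each) and a log2 difference of -0.35 (SE 0.22). Its difference was -0.11 between the mTert arrays and -0.59 between the control arrays. Cdkn2c lay on the other side, with 1831 ± 56.5 against 1567 ± 10.7 and a log2 difference of 0.22 (SE 0.09, limma adjusted p of 0.453). Cdkn2d was also higher on both arrays numbered 2, at 0.09 (SE 0.13). The Bmi1 probe sets stood at 0.13 (SE 0.13) and 0.16 (SE 0.24) and overlapped between the numbers.

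The macrophage and leukocyte markers moved with this comparison: 15 of 16 tested were called higher on arrays numbered 2, with a median log2 difference of 2.15. Their part in the differences of Cdkn1c, Cdkn2b and Cdkn1a was not tested. The 14 fibroblast markers had a median of -0.02, with 1 called, where 137 of all 7387 genes were called. The summed signal of the fibroblast markers was 113344 and 115524 on mTert 2 and control 2, against 115193 and 119943 on mTert 1 and control 1. At a limma unadjusted p under 0.05 there were 5 of the 14 (35.7%), against 10.8% of all genes. The arrays numbered 2 lay wholly below for 6 of the 14 and wholly above for 3, together 64.3% against 40.3% of all genes.

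**Figure D3:**
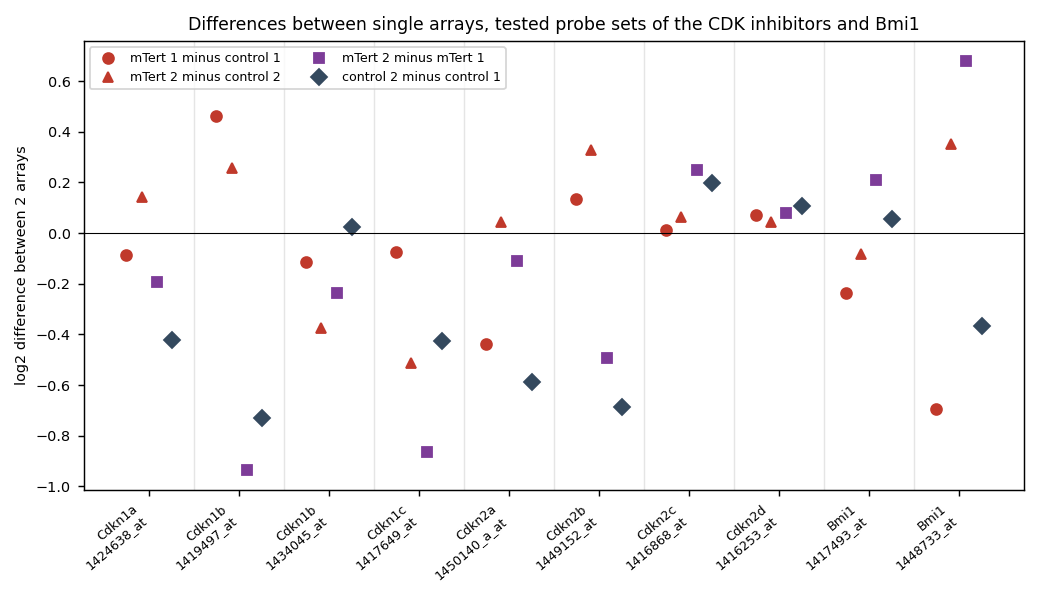
Log2 difference between single arrays for each tested member probe set, mTert minus control within each number (red circles and triangles), and number 2 minus number 1 within mTert (squares) and within control (diamonds). Squares and diamonds lie on the same side of 0 for 8 of the 10 probe sets; the exceptions are the brighter Cdkn1b and the dimmer Bmi1 probe set.

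The genes that the inhibitors act on and answer to were read from lists, taken by the brightest tested probe set of each gene. For mTert against control, limma called 0 genes of these lists over all probe sets. At an unadjusted p under 0.05 there were 8 regulators, 2 other senescence genes, 1 proliferation marker and 0 genes of the remaining lists, where 162 of all 7387 genes were (2.19%). The 13 CDKs and cyclins had a median log2 difference of 0.01, with 7 higher and 6 lower in sign. Cdk1, the mitotic kinase, stood at 0.19 (SE 0.15) and Cdk2, the target of p21 and p27, at -0.18 (SE 0.20). The 13 pocket proteins and E2F factors had a median of 0.02, with E2f8 at -0.44 (SE 0.23). The 16 Polycomb genes and related histone enzymes had a median of -0.04, with 5 higher and 11 lower in sign. Kdm6a, a histone demethylase that opposes Polycomb, stood at -0.28 (SE 0.15), and Phc1, a subunit of the Bmi1 complex, at -0.18 (SE 0.13).

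Transcription factors that act on the inhibitor genes had a median of -0.14 over 26 genes, with 23 lower in sign. By p-value the leading members were Junb at -0.86 (SE 0.12), Klf4, an activator of Cdkn1a, at -0.49 (SE 0.09) and Jun, a repressor of Cdkn1a, at -0.44 (SE 0.11). The mTert pair lay wholly below the control pair for 11 of the 26 and wholly above for 0. Over all 7387 genes 11.7% lay wholly below and 13.8% wholly above, with a median of 0.0078. The 16 genes of the ubiquitin pathway that turns over inhibitor proteins had a median of -0.03, with Btrc at 0.36 (SE 0.16). The 20 other genes tied to senescence had a median of -0.05, led by Bhlhe40 at -0.59 (SE 0.10) and Timp1 at 0.41 (SE 0.12). The 15 proliferation markers had a median of 0.14, with 12 higher in sign and Mcm3, a subunit of the replicative helicase, at 0.34 (SE 0.13).

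Between arrays numbered 2 and 1 the lists around the inhibitors held 1 called gene, where 137 of all 7387 genes were called. It was Tagln, a smooth muscle cytoskeletal protein in the list of other senescence genes, at -0.55 (SE 0.08, limma adjusted p of 0.019). At a limma unadjusted p under 0.05 there were 8 of the 20 other senescence genes, 3 regulators, 1 CDK or cyclin and 1 ubiquitin pathway gene. The remaining lists held 0, and the share over all genes was 10.8%. Among the other senescence genes Ccl2 and Cxcl1, secreted chemokines, stood at 0.79 (SE 0.18) and 0.65 (SE 0.13). Ccnd2, cyclin D2, the partner of CDK4 and CDK6, stood at -0.38 (SE 0.07, limma adjusted p of 0.053). Among the regulators, Id4 and Twist2 stood at -0.81 (SE 0.19) and -0.78 (SE 0.16). Mdm2, which degrades p53 and is itself a p53 target, stood at -0.50 (SE 0.18). With the vector as a block limma called 353 of all 12396 probe sets (2.85%). Of the genes named in this paragraph it then also called Id4, Twist2, Ccnd2, Cxcl1 and Ccl2, with adjusted p of 0.0050, 0.010, 0.022, 0.024 and 0.029. List medians were 0.03 for CDKs and cyclins, 0.07 for pocket proteins and E2F factors and 0.0005 for Polycomb genes and related histone enzymes. They were -0.10 for regulators, with 19 of 26 lower in sign, -0.09 for the ubiquitin pathway, 0.01 for other senescence genes and 0.02 for proliferation markers. The arrays numbered 2 lay wholly below for 13 of the 26 regulators and wholly above for 2, against 18.4% and 21.9% of all genes. Signals did not overlap for 55% of other senescence genes, 53.8% of CDKs and cyclins and 53.8% of pocket proteins and E2F factors. The shares were 31.25% for the ubiquitin pathway, 20% for proliferation markers and 12.5% for Polycomb genes, against 40.3% of all genes.

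**Figure D4:**
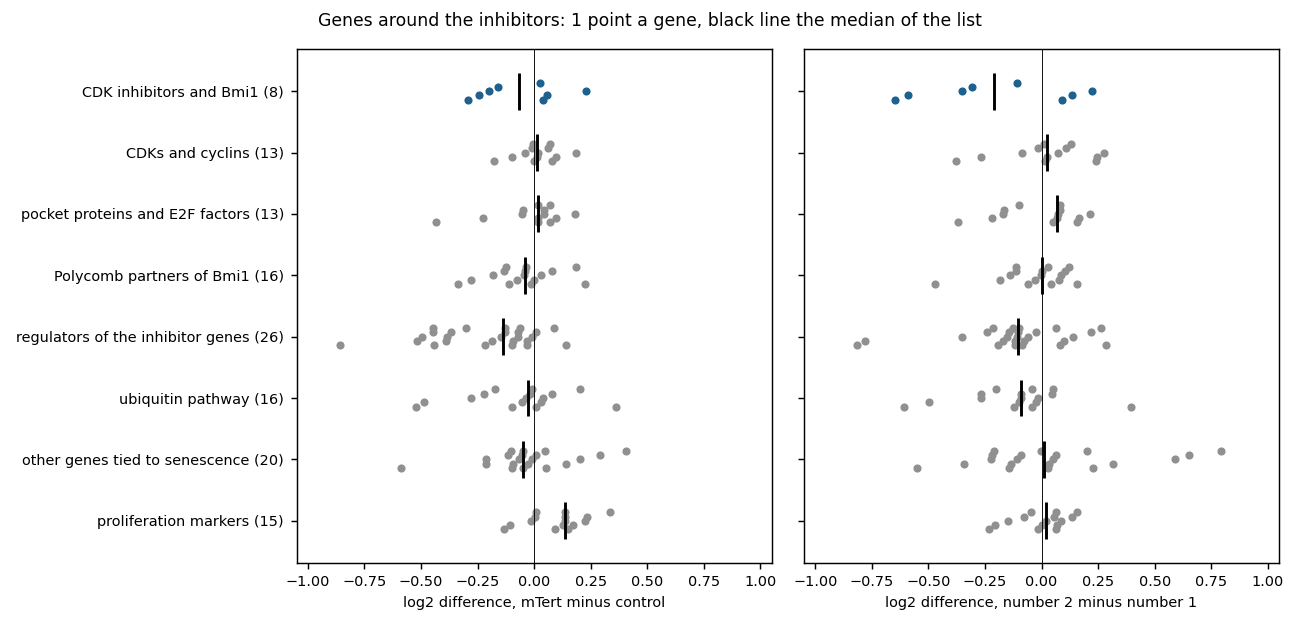
Log2 difference of each tested gene, mTert minus control (left) and arrays numbered 2 minus 1 (right), for the 8 member genes (blue) and 7 lists around them (grey); black lines are medians and the number of genes stands beside each name. The members reach -0.65 on the right, beyond all CDKs and cyclins, and no further than -0.29 on the left, where Junb at -0.86 lies lowest.

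The genes whose pattern over the 4 arrays lay nearest to a member were found by the root mean square distance between log2 profiles, each centred on its own mean. For Cdkn1a these were Myo7a, Tsg101 and Pdlim5, at distances of 0.0060, 0.012 and 0.013. For Cdkn2a they were Cd109, Dym and Spsb1, at 0.013, 0.037 and 0.040. For Bmi1 they were Phpt1, Dnajc13 and Man1a2, at 0.012, 0.014 and 0.015. Within a distance of 0.05 lay 62 of 7387 genes for Cdkn1a, 5 for Cdkn2a and 121 for Bmi1. With 4 arrays a high correlation is common: Pearson's r with Cdkn1a was above 0.95 for 238 of 7387 genes (3.22%), with Cdkn2a for 149 and with Bmi1 for 158.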

How the data were processed

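RNA of 4 fibroblast samples was hybridised to 4 MOE430A arrays and samples were grouped by their titles. The authors deposited 1 linear intensity per probe set and array, with a detection call and a detection p-value, per the file headers; the summarising software was not given in the sources used here. Trimmed means (2% left out at each end) were nearly equal, between 498.2 and 498.5, as after scaling to 1 level. The series table repeated these values.

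Log2 was taken after scaling each array to the mean trimmed mean, and 1 signal of 0 was replaced by the lowest signal called present on that array. Left out were 64 control probe sets and all probe sets present on fewer than 2 arrays. Symbols came from GEO's platform annotation, and coordinates and promoters from RefSeq tables (GRCm38.p6), which held 10 windows for 7 of the 8 genes, without Cdkn1c. Both comparisons used limma 3.58.1 under R 4.3.3 (lmFit, eBayes with an intensity trend), without a block, with Benjamini-Hochberg adjustment across every tested probe set. This step was tested on simulated data. The noise there was independent for each array, whereas deviations of same-numbered arrays correlated at 0.37 in these data.

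The members, lists and rules were chosen with earlier results of these data known. The named genes are all members, Tert, up to 3 genes with the smallest p per list and comparison, the brightest fibroblast markers and the nearest profiles; C1qa, Fcer1g and Mpeg1 were picked with their values in view. The other marker lists had few tested genes: 3 endothelial, 1 epithelial, 2 skeletal muscle and 3 neural, with 0 called by limma in either comparison (at an unadjusted p under 0.05, 1 endothelial gene between the numbers). The number of arrays limits the precision. Alternatives were another normalization, filter, scale, variance model and probe set rule, a block, and leaving out each array.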

Additional observations from a re-analysis of the deposited data

How the results depend on the processing

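The members' differences were recomputed under quantile normalization, signals as deposited, other filters on calls, log2 of signal plus 50, no intensity trend, a block, each array left out and the mean over a gene's probe sets. Calls were not counted for the mean over a gene's probe sets. For mTert against control limma called 0 probe sets under the others except with the array number as a replicate block, where it called 18, 3 higher and 15 lower. No member was called with the block, but Tert was (limma adjusted p of 5.3e-08), as were Junb, Klf4 and Bhlhe40 of the lists (limma adjusted p of 0.000196, 0.042 and 0.042). The numbers are not stated to pair the arrays. The deviations of same-numbered arrays from their group means correlated at 0.37 across probe sets, which are not independent. Leaving out 1 array gave log2 differences from -0.18 to 0.24 for Cdkn1a, from -0.73 to 0.14 for Cdkn1c, from -0.49 to 0.097 for Cdkn2a, from -0.11 to 0.57 for Cdkn2b and from -0.086 to 0.16 for Cdkn2c, so their signs rest on single arrays. Cdkn1b stood at 0.058 as the mean of its probe sets, which point opposite ways. In all, 9 of 96 recomputed member values changed sign.

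For arrays numbered 2 against 1, limma called 94 probe sets with no filter on calls, 120 among those present on all 4 arrays, 80 with no intensity trend, 353 with the vector as a block, and between 80 and 206 with 1 array left out; the cause was not tested. The members' median was -0.33 as the mean over probe sets and lay between -0.27 and -0.091 with 1 array left out. Cdkn1b lay between -0.30 and 0.079 with 1 array left out, and its value without mTert 2 was the 1 of 96 that changed sign. As the mean over its probe sets Cdkn1b stood at -0.47. Cdkn1c and Cdkn2b passed with the vector as a block, and Cdkn1c without control 2. Such fits with 3 arrays also mix the vector with the number.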
